A study of Mus musculus with 8 samples.

Results

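The genes described here are 10 transcripts commonly used to recognise astrocytes: Gfap, Aqp4, Slc1a2, Slc1a3, Gja1, Gjb6, Aldh1l1, Agt, S100b and Ntsr2. They were found by gene symbol in the probe annotation of the array, which paired them with 11 of the 23473 probes (10 of 19321 named genes), 2 of these for Slc1a2 and 1 for each other gene. All 11 probes were among the 21583 tested, and each lay above the limit set by the blank spots on 8 of 8 arrays. The series asked how drinking trehalose, a disaccharide of glucose, affects the mouse brain. RNA came from male C57Bl/6J mice labelled as 9 weeks old, of wild-type strain with no transgene named, all fasted for 6 h and then perfused. The control group held 2 mice given water (day 0), and the trehalose groups held 3 mice after 1 day and 3 after 10 days of drinking it, with 1 array per mouse. Controls were sampled at day 0 alone, so trehalose and the time of sampling cannot be told apart, and mice shared cages of 3 that the labels do not identify. By its sample labels the tissue was cerebral cortex, whereas the design text speaks of the left hemisphere.

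Astrocytes clear transmitter from synapses, buffer potassium and water, and feed and couple neighbouring cells. Slc1a2 (GLT-1) and Slc1a3 (GLAST) are the sodium-driven transporters that take up most synaptic glutamate. Gja1 (connexin 43) and Gjb6 (connexin 30) form the gap junctions that join astrocytes into a network, and Aqp4 is the water channel of their end-feet around vessels. Gfap is the intermediate filament protein of fibrous and reactive astrocytes, and Agt, the precursor of angiotensin peptides, is made mainly by astrocytes below the cortex. The arrays measured bulk tissue, in which fewer astrocytes and less RNA per astrocyte cannot be told apart.

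The promoters of 4 genes are shown because they belong to the 3 genes whose intensities were most strongly related across arrays (Agt, Gfap and Slc1a3) and to Ntsr2, the other gene with the same motif. They are RefSeq sequences of build GRCm38.p6, from 200 bases before the annotated start to 20 bases from it, and capitals mark the motif TTCNNNGAA, which is recognised by STAT transcription factors.
Agt, chr8:124569687-124569906, minus strand: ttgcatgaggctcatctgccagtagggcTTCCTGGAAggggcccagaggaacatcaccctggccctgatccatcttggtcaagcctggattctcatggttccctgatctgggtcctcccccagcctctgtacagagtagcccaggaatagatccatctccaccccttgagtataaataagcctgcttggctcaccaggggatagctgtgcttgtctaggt
Gfap, chr11:102897181-102897400, minus strand: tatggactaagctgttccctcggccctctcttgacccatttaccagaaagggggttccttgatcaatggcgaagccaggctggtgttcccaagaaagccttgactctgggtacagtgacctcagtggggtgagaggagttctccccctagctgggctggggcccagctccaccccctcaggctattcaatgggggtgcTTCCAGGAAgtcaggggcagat
Slc1a3, chr15:8710788-8711007, minus strand: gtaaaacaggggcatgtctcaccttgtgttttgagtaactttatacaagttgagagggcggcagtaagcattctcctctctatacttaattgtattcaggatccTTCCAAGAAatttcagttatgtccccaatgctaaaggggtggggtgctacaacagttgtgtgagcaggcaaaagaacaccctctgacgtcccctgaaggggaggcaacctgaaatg
Ntsr2, chr12:16653270-16653489, plus strand: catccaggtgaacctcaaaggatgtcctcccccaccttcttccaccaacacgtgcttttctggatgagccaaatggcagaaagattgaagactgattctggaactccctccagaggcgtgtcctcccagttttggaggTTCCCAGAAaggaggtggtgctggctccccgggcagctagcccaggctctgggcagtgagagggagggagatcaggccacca

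The motif search covered windows of 300 bases (250 before the start and 50 from it) on both strands, for 9 of the 10 genes; the entry for Aqp4 was not used here. TTCNNNGAA, which reads the same on both strands, was found in 4 of the 9 windows and in 8.3% of all 32841 windows of that length. The TATA box TATAAA was found for Agt, at positions -30 to -25 from the start on the same strand, and for Slc1a3 on the opposite strand, and in 13.6% of all windows. The motif TTGGC of NFI factors, which act in astrocyte development, was found for Agt, Ntsr2, S100b and Slc1a2 and in 46.7% of all windows. AACAAT, a motif of SOX factors, was found in 0 of the 9 windows and in 10.7% of all. No match of one motif overlapped a match of another, and a match is a description of letters, not of binding.

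By limma, 0 of the 11 astrocyte probes passed an adjusted p of 0.05 in any of the 3 comparisons, and each had an adjusted p of 1. Over all 21583 probes 0% were called in each comparison. At an unadjusted p under 0.05 there were 2 astrocyte probes after 1 day against control, Agt (higher) and Slc1a3 (lower), where 3.65% of all probes reached that level (2.02% higher and 1.62% lower). After 10 days against control there were 0, where 2.00% of all probes did (1.23% higher and 0.774% lower). Between the times there were 0, where 3.50% did (1.85% higher and 1.65% lower). Against control, 5 of the 11 probes were higher and 6 lower after 1 day, with a median log2 change of -0.0098 beside -3e-04 over all probes. After 10 days 8 were higher and 3 lower (median 0.0425 beside -0.0017), and from 1 to 10 days 5 were higher and 6 lower (median -0.0025 beside -0.0015).

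**Figure D1:**
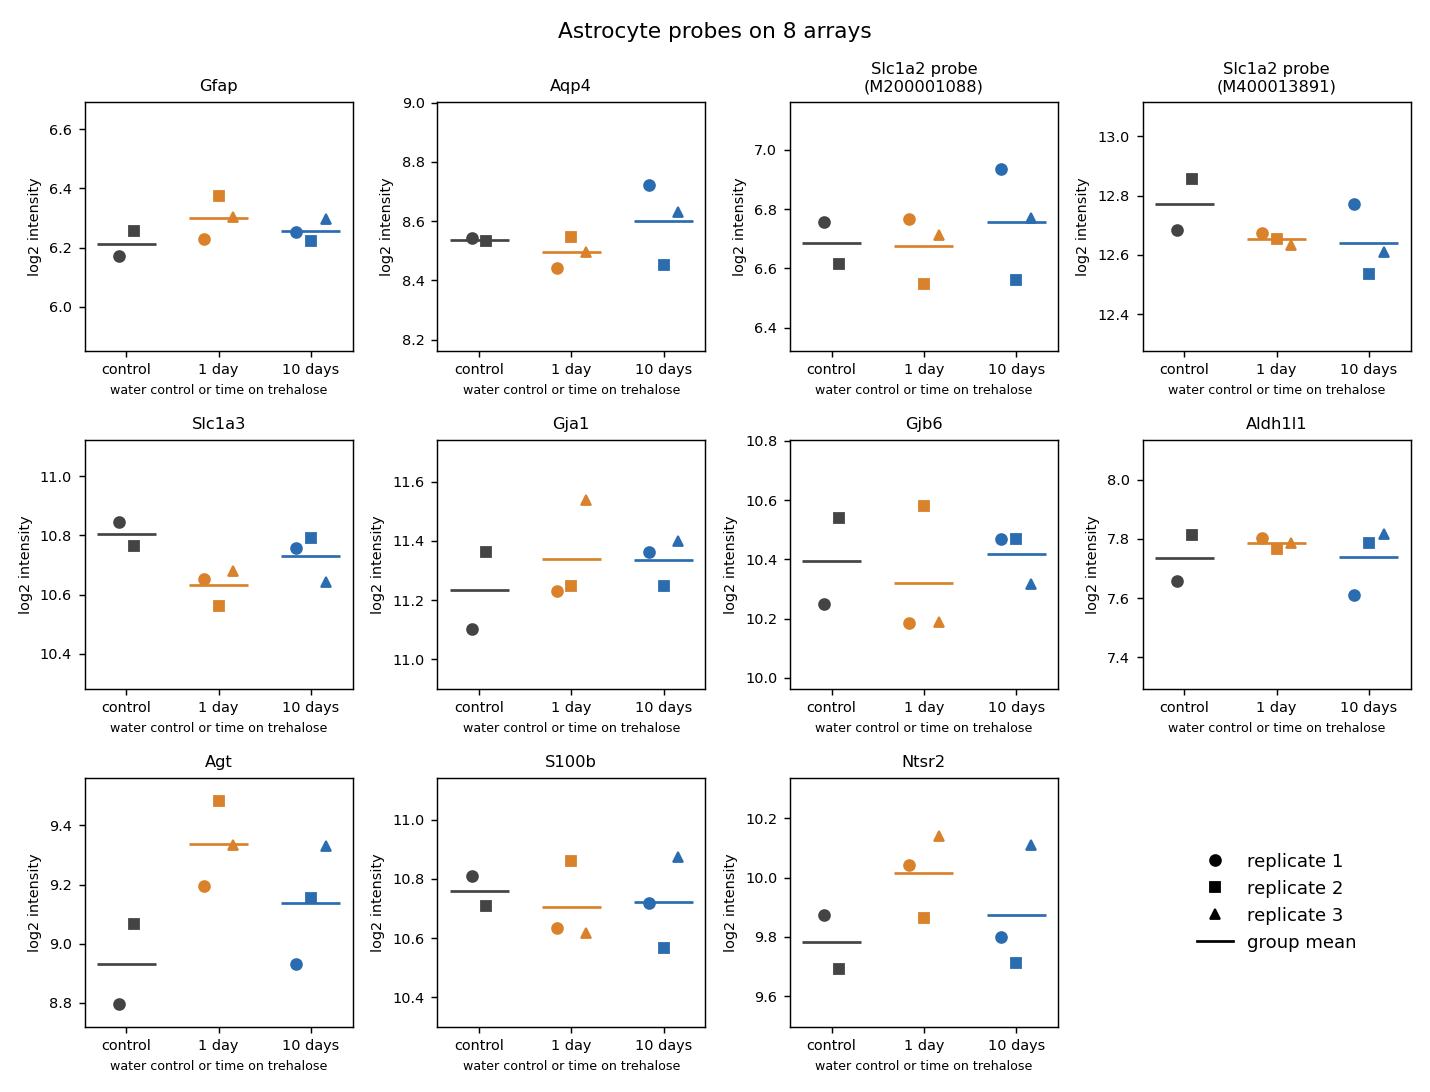
Log2 intensity (y axis) of the 11 astrocyte probes on the 8 arrays, by group (x axis); marker shapes give the replicate and bars the group means, and every panel spans the same height on the log2 scale. The 3 Agt values after 1 day lie above both controls, and the 3 Slc1a3 values lie below both.

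Arrays were otherwise much alike: correlations of log2 intensity between arrays across the tested probes lay between 0.9941 and 0.9977. The arrays differed in markers of other brain regions. Relative to the mean over arrays, the striatum marker mean (14 probes of 13 genes) stood at -0.67 on the log2 scale on trehalose 1 day replicate 2 and between -0.05 and 0.28 on the other arrays. The thalamus marker mean (16 probes of 14 genes) was lowest on control replicate 1, at -0.22, and highest on trehalose 1 day replicate 2, at 0.27. Against control, 14 of these 16 probes were higher after 1 day (median log2 change 0.18) and 15 after 10 days (median 0.15). Over all probes 49.7% and 48.6% were higher, and 0 thalamus probes passed the adjusted threshold. Of the 14 striatum probes, 13 were lower than control after 1 day (median -0.30) and 10 after 10 days (median -0.08). Of 11 probes of cortical excitatory neurons, 9 were lower than control after 1 day (median -0.07) and 9 after 10 days (median -0.09). Every gene of the lists of cortical excitatory neurons, oligodendrocytes, microglia and endothelium that the array carried was tested, and the means of these lists lay between -0.11 and 0.11 on each array. Lower than control were 9 of 10 endothelial probes after 1 day (median -0.05) and 5 after 10 days (median -0.01). For microglia these counts were 6 and 7 of 9 (medians -0.05 and -0.04), and for oligodendrocytes 5 and 5 of 11. The mean of choroid plexus and ependyma markers (7 probes) ran from -0.19 on control replicate 1 to 0.27 on trehalose 1 day replicate 2. What these differences contribute to the results below was not tested.

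Of the glutamate transporters, Slc1a3 had the lowest p against control, after 1 day, although another background correction gave that place to Slc1a2. Its log2 intensity was 10.84 and 10.76 in the controls, 10.65, 10.56 and 10.68 after 1 day, and 10.76, 10.79 and 10.64 after 10 days. All 3 values at 1 day lay below both controls, while those at 10 days overlapped the controls and the 1-day group. Its change after 1 day was -0.17 (SE 0.06, 95% interval -0.31 to -0.04, unadjusted p = 0.0198 and adjusted p = 1 by limma), or 0.887-fold. After 10 days its change from control was -0.07 (SE 0.06), and from 1 to 10 days it was 0.10 (SE 0.05). The 1-day change was -0.14 without trehalose 1 day replicate 2 (unadjusted p = 0.0599 by limma) and -0.13 without control replicate 1. With the local background column subtracted it was 0.02 (SE 0.42). That column followed the spots themselves, with r of 0.936 to 0.983 across spots on the log scale, which limits every value given with it subtracted.

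Slc1a2, the more abundant uptake carrier of the mature forebrain, was read by a bright and a dim probe that the annotation assigns to different RefSeq transcripts. The bright probe (M400013891, at 173 to 228 times the blank limit) measured 12.69 and 12.86 in the controls, 12.67, 12.65 and 12.63 after 1 day, and 12.77, 12.54 and 12.61 after 10 days. All 3 values at 1 day lay just under the lower control, and the 10-day values overlapped the controls. Its changes from control were -0.12 after 1 day (95% interval -0.29 to 0.06) and -0.13 after 10 days (-0.31 to 0.05). Both depended on the control arrays: without control replicate 1 they were -0.20 (unadjusted p = 0.0568 by limma) and -0.22 (unadjusted p = 0.0436 by limma), and without control replicate 2 they were -0.03 and -0.05. With the local background column subtracted they were -0.63 (SE 0.13, unadjusted p = 0.00258 and adjusted p = 0.46 by limma) and -0.53 (SE 0.13, unadjusted p = 0.00582 and adjusted p = 0.714 by limma), lower p-values than any of Slc1a3 under that setting. The dim probe (M200001088, at 1.98 to 3.17 times the limit) measured 6.76 and 6.62 in the controls, 6.77, 6.55 and 6.71 after 1 day, and 6.94, 6.56 and 6.77 after 10 days. Its groups overlapped in each comparison, with changes from control of -0.01 (-0.27 to 0.25) and 0.07 (-0.19 to 0.33). Across the 8 arrays the rank correlation of the probes was rho = 0.238 (Spearman, exact permutation p = 0.582) and the linear correlation r = 0.29 (Pearson, exact permutation p = 0.486), with r = -0.0129 without trehalose 1 day replicate 2 and 10 days replicate 1.

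The other carriers of the SLC1 family (5 genes, 6 probes) showed 0 adjusted calls and 0 probes at an unadjusted p under 0.05 in each comparison. Slc1a1, the neuronal glutamate transporter, was read by 2 probes with changes of 0.01 (SE 0.08) and -0.0036 (SE 0.04) after 1 day. The second probe measured only 5.84 to 5.92 over the arrays. That is about the level of the Kcnj10 probe described below (5.86 to 5.93), near the blank limit, so it says little. The lowest p of the family belonged to Slc1a6, a transporter of Purkinje cells, after 1 day, with a change of -0.06 (SE 0.06). In the other comparisons it belonged to Slc1a5, a neutral amino acid exchanger, with -0.05 (SE 0.04) at 10 days against control and -0.05 (SE 0.04) against 1 day. The Slc1a5 probe was dim, at 1.67 to 2.06 times the blank limit.

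Among 14 probes of glutamine, glutamate and GABA handling, 0 passed the adjusted threshold and 1 had an unadjusted p under 0.05, between the times. That probe was Glul, glutamine synthetase, which turns the glutamate taken up by astrocytes into glutamine. It measured 10.99 and 11.44 in the controls, 10.89, 11.14 and 11.20 after 1 day, and 11.40, 11.42 and 11.38 after 10 days. The 10-day values all lay above the 1-day values but inside the range of the controls, with a change between the times of 0.32 (SE 0.12, unadjusted p = 0.0285 and adjusted p = 1 by limma). Slc7a10, an astrocytic transporter of serine and glycine, had the lowest p of the list against control, at 0.10 (SE 0.06) after 1 day and 0.11 (SE 0.06) after 10 days.

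The gap junction genes varied as much within groups as between them. Gja1 measured 11.10 and 11.36 in the controls, 11.23, 11.25 and 11.54 after 1 day, and 11.36, 11.25 and 11.40 after 10 days. The range of the controls held 2 of the 3 values in each trehalose group, and the changes were 0.10 (95% interval -0.16 to 0.36) and 0.10 (-0.16 to 0.36). They ran from -0.03 without control replicate 1 to 0.23 without control replicate 2 at both times, and with the local background column subtracted they were 1.45 (SE 1.41) and 1.78 (SE 1.41). Gjb6 measured 10.25 and 10.54 in the controls, 10.19, 10.58 and 10.19 after 1 day, and 10.47, 10.47 and 10.32 after 10 days. The 1-day group held both its lowest and its highest value, and its changes from control were -0.08 (-0.39 to 0.24) after 1 day and 0.02 (-0.29 to 0.34) after 10 days. Without control replicate 1 and trehalose 1 day replicate 2 (the setting added after the data were seen) the 1-day change of Gjb6 was -0.35 (unadjusted p = 0.00571 and adjusted p = 0.999 by limma). The intervals are wide and do not show that the connexins were unaltered.

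Of the remaining connexins, pannexins and their scaffold (10 probes), 0 had an unadjusted p under 0.05 in any comparison, and their medians lay between -0.0191 and 0.0091. Gjb2, connexin 26, which is also made by astrocytes, had changes of -0.05 (SE 0.06) and -0.01 (SE 0.06) from control. Panx1, a membrane channel that releases ATP, had the lowest p after 1 day, with a change of -0.28 (SE 0.15), and between the times, with 0.16 (SE 0.13), which was -0.0051 without 10-day replicate 3. Panx2 had it after 10 days against control, with -0.09 (SE 0.07).

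**Figure D2:**
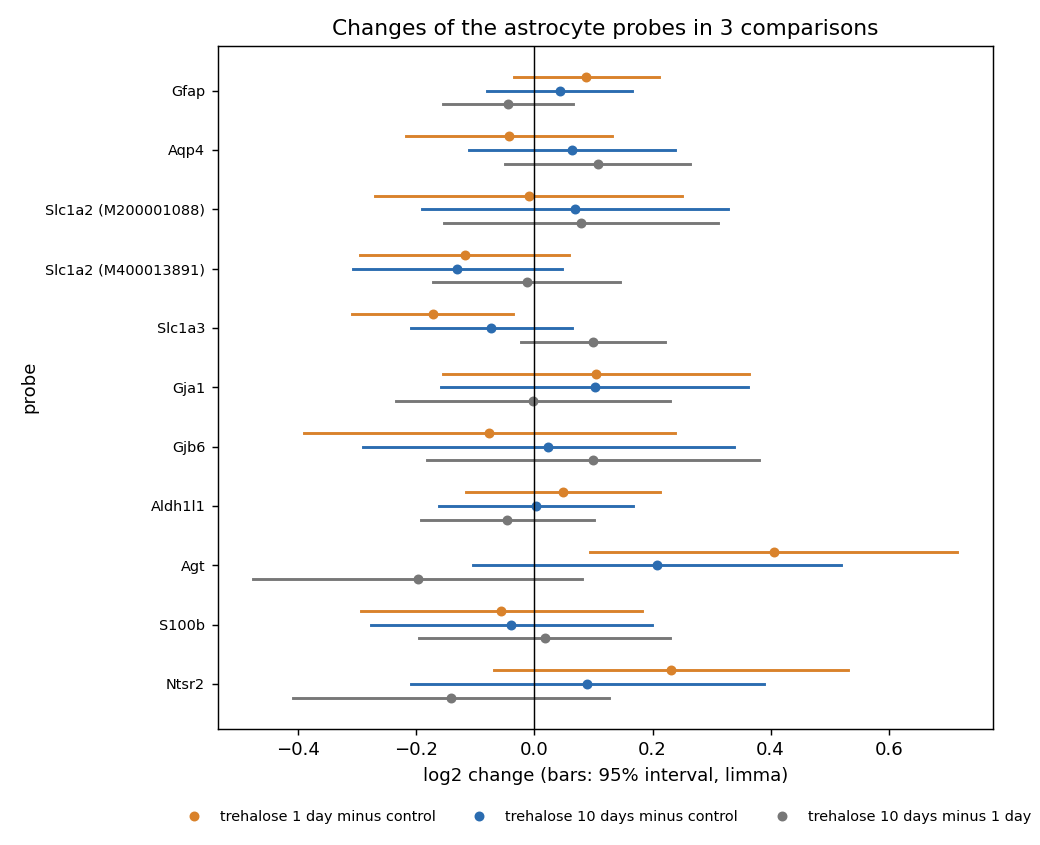
Log2 change (x axis) of each astrocyte probe (y axis) in the 3 comparisons by limma over all 8 arrays; dots are estimates and bars 95% intervals, coloured by comparison. The interval lies off 0 for Agt and Slc1a3 after 1 day, before adjustment, and crosses 0 for the other probes and comparisons.

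Aqp4, the water channel gene, had its largest difference between the times. It measured 8.54 and 8.53 in the controls, 8.44, 8.54 and 8.50 after 1 day, and 8.72, 8.45 and 8.63 after 10 days. The 10-day group spanned all but the lowest value of the 8 arrays, and the groups overlapped in each comparison. Its change from control was -0.04 (95% interval -0.22 to 0.13) after 1 day and 0.06 (-0.11 to 0.24) after 10 days, and from 1 to 10 days it was 0.11 (-0.05 to 0.26). Single 10-day arrays moved these values: without 10-day replicate 1 they were 0.0027 against control and 0.05 between the times, and without 10-day replicate 2 they were 0.14 (unadjusted p = 0.0348 and adjusted p = 1 by limma) and 0.18 (unadjusted p = 0.00741 and adjusted p = 0.999 by limma).

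Partner genes of the end-foot in potassium, bicarbonate and water balance gave 0 adjusted calls over 12 probes. Clcn2, a chloride channel that binds the end-foot protein GlialCAM, measured 7.92 and 7.90 in the controls, 7.99, 8.08 and 8.16 after 1 day, and 7.99, 7.92 and 7.95 after 10 days. Its 1-day values lay above both controls, with a change of 0.17 (SE 0.05, unadjusted p = 0.0139 and adjusted p = 1 by limma), and the change between the times was -0.12 (SE 0.05, unadjusted p = 0.0348 and adjusted p = 1 by limma). Hepacam, which encodes GlialCAM, had the lowest p after 10 days, with a change of 0.11 (SE 0.06). The probe of Kcnj10, the main astrocytic potassium channel, lay at 0.983 to 1.14 times the blank limit, so its changes of 0.03 (SE 0.03) after 1 day and 0.03 (SE 0.03) after 10 days say little about this gene.

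Agt had the largest change from control of the 10 genes. Its log2 intensity was 8.80 and 9.06 in the controls, 9.19, 9.48 and 9.33 after 1 day, and 8.93, 9.15 and 9.33 after 10 days. All 3 values at 1 day were above both controls, and the 10-day values overlapped both other groups. The change after 1 day was 0.40 (SE 0.13, 95% interval 0.09 to 0.72, unadjusted p = 0.0174 and adjusted p = 1 by limma), or 1.32-fold. After 10 days it was 0.21 (SE 0.13, -0.10 to 0.52) and between the times -0.20 (SE 0.12, -0.48 to 0.08). The order of the group means was 9.34 after 1 day, 9.14 after 10 days and 8.93 in control, and neither the 10-day and 1-day groups nor the 10-day and control groups were separated beyond their spread. The probe had an SD over the 8 arrays of 0.23, higher than that of 98.5% of the tested probes, whatever their brightness.

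The size of the 1-day change of Agt depended on which arrays were compared. It was 0.27 without control replicate 1, 0.54 without control replicate 2 and 0.33 without trehalose 1 day replicate 2 (unadjusted p = 0.0539 by limma). Without control replicate 1 and trehalose 1 day replicate 2, a setting added after the data were seen, it was 0.20. With the local background column subtracted it was 0.77 (unadjusted p = 0.0388 and adjusted p = 0.7 by limma). Over all 8 arrays it was 0.36 with the replicate number as a block (unadjusted p = 0.00357 by limma). With the number that opens a sample's description as covariate it was 0.43 (unadjusted p = 0.00205 by limma), and with array weights 0.40 (unadjusted p = 0.0121 by limma). None of these passed the adjusted threshold. The 10-day change ran from 0.07 without control replicate 1 (unadjusted p = 0.667 by limma) to 0.34 without control replicate 2, and the change between the times from -0.29 without 10-day replicate 3 to -0.09 without 10-day replicate 1. Control replicate 1 held the lowest Agt value and the lowest thalamus marker mean, and trehalose 1 day replicate 2 held the highest of each. The hypothalamus marker mean (8 probes), relative to the mean over arrays, was -0.07 and -0.15 in the controls, 0.20, 0.26 and -0.06 after 1 day, and -0.02, -0.10 and -0.06 after 10 days. Their part in the Agt result was not tested.

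Other astrocyte genes known to be stronger below the cortex were set beside Agt. Of the 4 probes in this list, 4 were higher after 1 day against control and 0 passed the adjusted threshold, with a median change of 0.20 beside -3e-04 over all probes. After 10 days 2 were higher and 2 lower than control (median 0.07 beside -0.0017). At 1 day 2 of the 4 were higher with the local background column subtracted (median 0.16), and 3 without control replicate 1 (median 0.28). Sparc, a matrix protein secreted by astrocytes and vessel cells, measured 10.38 and 10.70 in the controls, 10.85, 11.19 and 11.18 after 1 day, and 10.57, 10.87 and 10.93 after 10 days. It was higher on all 3 arrays at 1 day than on both controls, with a change of 0.53 (SE 0.15, unadjusted p = 0.0081 and adjusted p = 1 by limma), and its 10-day values overlapped the controls, with 0.25 (SE 0.15) against control and -0.28 (SE 0.13) against 1 day. As with Agt, its 1-day change was smaller without control replicate 1 (0.37, unadjusted p = 0.0773 by limma) and without that array and trehalose 1 day replicate 2 (0.31, unadjusted p = 0.16 by limma), and its 10-day change was 0.09 without control replicate 1 and 0.41 without control replicate 2. The list mean, relative to the mean over arrays, was -0.13 and -0.12 in the controls and -0.02, -0.04 and -0.04 after 10 days. After 1 day it was 0.28 on trehalose 1 day replicate 2 and 0.05 and 0.02 on the other arrays. The list median at 1 day was 0.11 without trehalose 1 day replicate 2, with 3 of the 4 probes higher. Itih3, an inhibitor chain bound to hyaluronan, had 0.16 (SE 0.13) after 1 day, Slc6a11, the astrocytic GABA transporter, 0.05 (SE 0.11), and Slc6a9, the glycine transporter, 0.23 (SE 0.16). After 10 days their changes from control were -0.02 (SE 0.13), -0.04 (SE 0.11) and 0.17 (SE 0.16). The 3 astrocyte genes of the telencephalon gave 0 calls. Mfge8, a bridging protein for phagocytosis, had -0.17 (SE 0.14) after 1 day and -0.17 (SE 0.14) after 10 days. Its 10-day change was -0.32 without 10-day replicate 1 and -0.06 without 10-day replicate 2. Lhx2, a forebrain transcription factor, had -0.06 (SE 0.05) and -0.03 (SE 0.05) from control and 0.04 (SE 0.05) between the times. Emx2 went the other way from control, with 0.07 (SE 0.09) after 1 day and 0.04 (SE 0.09) after 10 days.

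**Figure D3:**
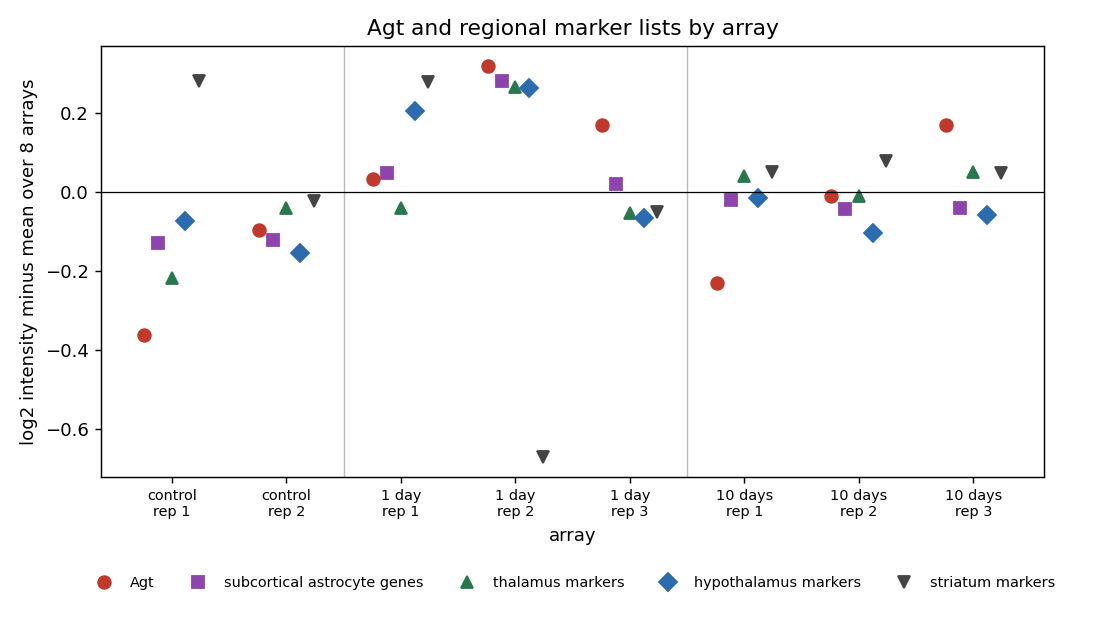
Log2 intensity relative to the mean over the 8 arrays (y axis) of Agt and of the mean of 4 marker lists, by array (x axis), with vertical lines between the groups. Trehalose 1 day replicate 2 has the highest Agt value, the highest thalamus mean (0.27) and the lowest striatum mean (-0.67).

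Genes that act with Agt in the renin-angiotensin system (8 probes of 8 genes) gave 0 probes at an unadjusted p under 0.05 in each comparison. Mas1, the receptor for angiotensin-(1-7), had the lowest p after 1 day, with 0.13 (SE 0.07), and between the times, with -0.13 (SE 0.06). Agtr2, an angiotensin II receptor, had it after 10 days, with 0.05 (SE 0.03), from a probe at 1.04 to 1.2 times the blank limit.

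Gfap was read by a dim probe, at 1.44 to 1.79 times the blank limit, and at that level the offset of 50 added to every intensity compresses changes. It measured 6.17 and 6.26 in the controls, 6.23, 6.37 and 6.30 after 1 day, and 6.25, 6.22 and 6.30 after 10 days. The groups overlapped in each comparison, and the changes from control were 0.09 (SE 0.05, 95% interval -0.04 to 0.21) and 0.04 (SE 0.05, -0.08 to 0.17). Without control replicate 1 they were 0.04 and 1e-04, and without control replicate 2 they were 0.13 and 0.09. With the mean of the blank spots subtracted in place of the offset, the 1-day change was 0.30 (SE 0.16, unadjusted p = 0.105 by limma).

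Genes of reactive astrocytes (33 probes) gave 0 adjusted calls, with 18 higher and 15 lower after 1 day and medians between 0.0083 and 0.0194 in the 3 comparisons. Vim, the filament partner of Gfap, had changes of 0.16 (SE 0.09) and 0.18 (SE 0.09) from control, and Serpina3n, a protease inhibitor of reactive astrocytes, 0.04 (SE 0.11) and 0.09 (SE 0.11). S100a10, an annexin partner, had the lowest p after 1 day, with -0.21 (SE 0.07, unadjusted p = 0.0221 and adjusted p = 1 by limma). Ptgs2, cyclooxygenase 2, which neurons also make, had it after 10 days, with 0.27 (SE 0.10, unadjusted p = 0.0263 and adjusted p = 1 by limma), from a probe at 2.22 to 3.61 times the limit. Tm4sf1 had it between the times, with -0.19 (SE 0.10).

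S100b, a calcium-binding protein of astrocytes and some oligodendrocytes, measured 10.81 and 10.71 in the controls, 10.63, 10.86 and 10.62 after 1 day, and 10.72, 10.57 and 10.87 after 10 days. The control values lay inside the range of both trehalose groups, with changes of -0.06 (95% interval -0.29 to 0.18) and -0.04 (-0.28 to 0.20). In the rest of the S100 family (12 probes) 0 passed the adjusted threshold. S100a10, given above, had the family's lowest p at both times against control, with -0.14 (SE 0.07) after 10 days, and S100a8, a protein of neutrophils, had it between the times, with -0.17 (SE 0.07).

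Aldh1l1 encodes the folate enzyme whose promoter and protein are used to label astrocytes throughout the brain. It measured 7.66 and 7.81 in the controls, 7.80, 7.76 and 7.78 after 1 day, and 7.61, 7.79 and 7.82 after 10 days. The 1-day values fell between the controls, and the changes were 0.05 (95% interval -0.12 to 0.21) and 0.0026 (-0.16 to 0.17). Among 7 probes of one-carbon enzymes, Shmt2, the mitochondrial serine hydroxymethyltransferase, had the lowest p after 1 day, at -0.13 (SE 0.04, unadjusted p = 0.018 and adjusted p = 1 by limma), and between the times, at 0.11 (SE 0.04). Mthfd2 had it after 10 days, at 0.07 (SE 0.06).

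Ntsr2 is the low-affinity neurotensin receptor and is carried mostly by astrocytes. It measured 9.87 and 9.69 in the controls, 10.04, 9.86 and 10.14 after 1 day, and 9.80, 9.71 and 10.11 after 10 days. Of the 1-day values 2 were above both controls and 1 between them, and of the 10-day values 1 was above and 2 between. Its changes were 0.23 (SE 0.13, 95% interval -0.07 to 0.53) and 0.09 (SE 0.13, -0.21 to 0.39). The 1-day change was 0.14 without control replicate 2 and 0.32 without control replicate 1, and with the local background column subtracted it was -0.12 (SE 0.93). Of its partners (3 probes), Ntsr1, the neuronal receptor, had a change of 0.07 (SE 0.04) after 1 day, from a probe at 1.46 to 1.82 times the blank limit. Sort1, the sorting receptor that also binds neurotensin, had 0.08 (SE 0.09) after 10 days. The peptide gene Nts had 0.23 (SE 0.17) between the times, which was 0.0025 without trehalose 1 day replicate 2.

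Groups did not overlap after 1 day for 1 astrocyte probe that was higher (Agt) and 2 that were lower (Slc1a3 and the bright Slc1a2 probe), beside 8.98% of all probes higher and 9.19% lower (18.2% in either direction). After 10 days and between the times the count was 0 of 11, beside 13.4% of all probes after 10 days (6.47% higher and 6.97% lower) and 8.39% between the times (4.00% higher and 4.39% lower). Of the 11 astrocyte probes, 10 had an SD over the 8 arrays above the median of all tested probes (0.0642). Gfap was the exception, and it was the probe nearest to the blank limit. These SDs were not set against probes of like brightness, and the offset compresses the spread of dim probes. A greater spread of astrocyte genes as such is therefore not shown.

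Broader astrocyte lists gave the same count of calls. Of 30 probes for other astrocyte identity genes, 0 passed the adjusted threshold, with 12 higher and 18 lower after 1 day and 15 in each direction after 10 days. Tril, a Toll-like receptor accessory protein, had the lowest p after 1 day, at 0.20 (SE 0.07, unadjusted p = 0.0187 and adjusted p = 1 by limma). Sox9, a transcription factor of astrocyte fate, had it after 10 days, at -0.16 (SE 0.08), and Ntrk2, the receptor of BDNF, between the times, at 0.15 (SE 0.04, unadjusted p = 0.00637 and adjusted p = 1 by limma). Against control, Ntrk2 was at -0.12 after 1 day (SE 0.04, unadjusted p = 0.0275 by limma) and at 0.03 after 10 days (SE 0.04). Of 20 probes for astrocyte metabolism and secretion, 0 passed as well. Cbs, an enzyme of cysteine synthesis, had -0.13 (SE 0.04, unadjusted p = 0.0121) after 1 day, and Slc39a12, a zinc transporter of astrocytes, 0.22 (SE 0.04, unadjusted p = 0.00107) after 10 days, each with an adjusted p of 1 by limma. Slc39a12 measured 8.57 and 8.68 in the controls, 8.74, 8.78 and 8.78 after 1 day, and 8.86, 8.85 and 8.82 after 10 days, so both trehalose groups lay above the controls. Apoe, the main lipid carrier secreted by astrocytes, had 0.10 (SE 0.04, unadjusted p = 0.0312 and adjusted p = 1 by limma) between the times. Against control it had -2e-04 (SE 0.04) after 1 day and 0.10 (SE 0.04, unadjusted p = 0.048 by limma) after 10 days.

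**Figure D4:**
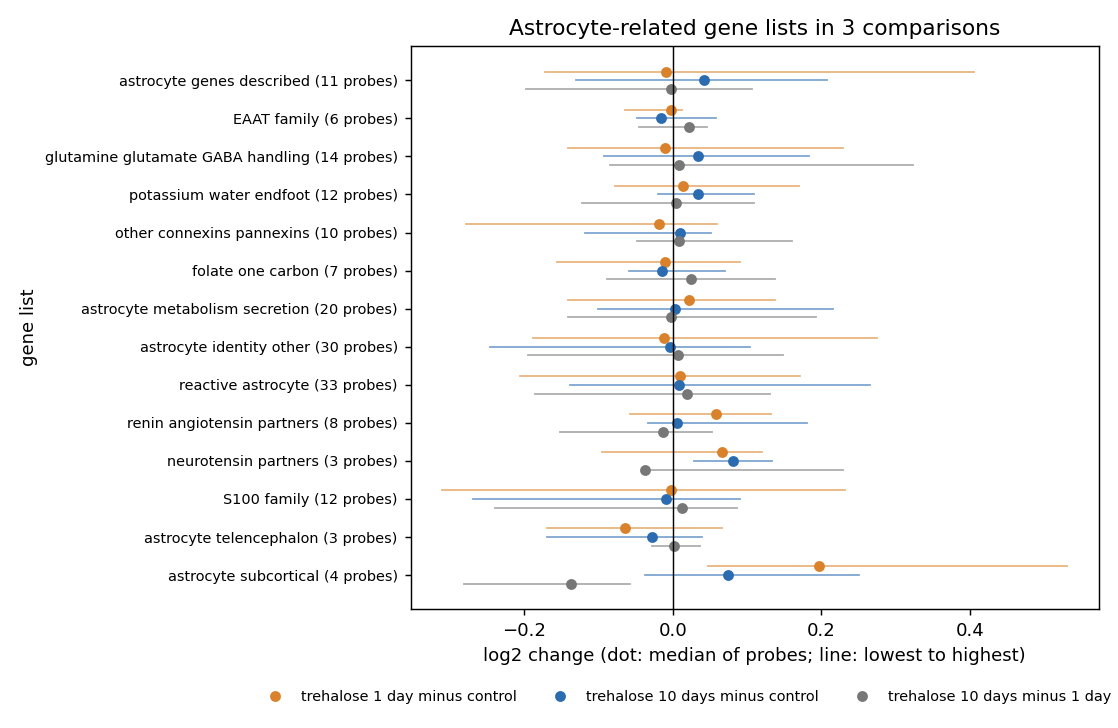
Log2 changes (x axis) of the described astrocyte probes and of 13 related gene lists (y axis) in the 3 comparisons; dots are medians over probes and lines run from the lowest to the highest probe. The median farthest from 0 is that of the 4 probes of subcortical astrocyte genes after 1 day, at 0.20.

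The 10 genes did not move as a block across arrays. Over 45 pairs (for Slc1a2 the bright probe), Pearson's r across the 8 arrays ran from -0.893 to 0.863 with a median of 0.111, and 26 pairs were positive. After Benjamini-Hochberg adjustment over the pairs 0 passed 0.05, and 4 had an unadjusted exact permutation p under 0.05. The permutations here and below treated the 8 arrays alike and took no account of the groups. Each r therefore holds differences between groups as well as within them, and Agt and Slc1a3 had 1-day changes in opposite directions, as given above. Agt and Slc1a3 ran opposite to each other, with r = -0.893 (exact permutation p = 0.00332, adjusted p = 0.0885) and rho = -0.833 (exact permutation p = 0.0154). Agt and Gfap ran together, with r = 0.863 (exact permutation p = 0.00568, adjusted p = 0.0885) and rho = 0.81 (exact permutation p = 0.0218). Gfap and Slc1a3 had r = -0.858 (exact permutation p = 0.0059, adjusted p = 0.0885) and rho = -0.786 (exact permutation p = 0.0279). Without control replicate 1 and trehalose 1 day replicate 2 these 3 values of r were -0.706, 0.576 and -0.515. Gjb6 and Ntsr2 had r = -0.771 (exact permutation p = 0.0388, adjusted p = 0.436), rho = -0.738 (exact permutation p = 0.0458) and r = -0.576 without trehalose 1 day replicates 1 and 3.

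**Figure D5:**
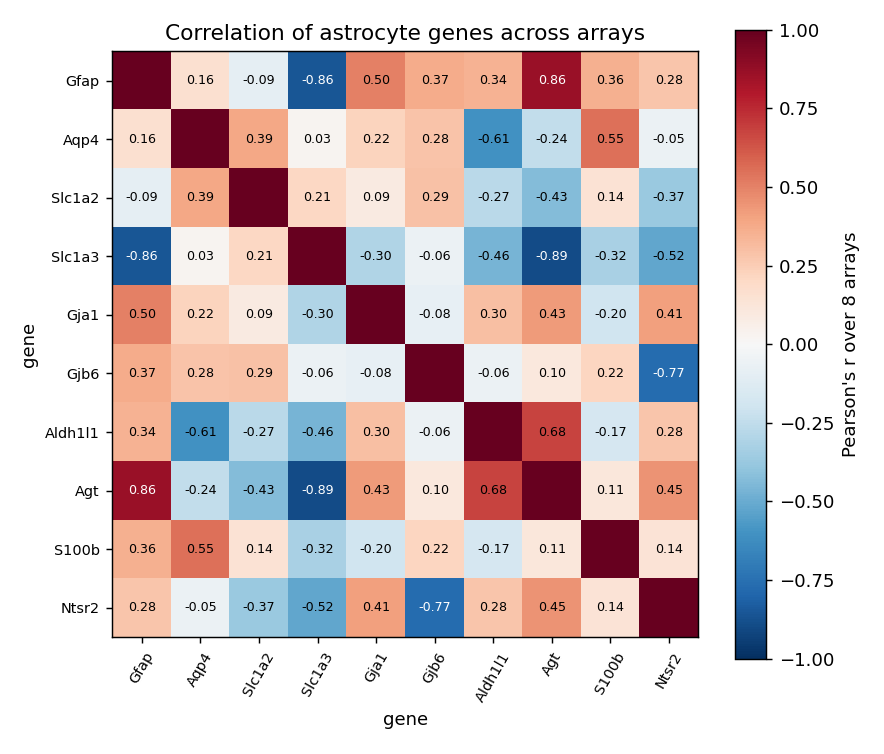
Pearson's r of log2 intensity between the 10 astrocyte genes (both axes) over the 8 arrays, with red for positive and blue for negative values. Slc1a3 stands against Agt (-0.893) and Gfap (-0.858), while Agt and Gfap run together (0.863).

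Each gene was also set against the number that opens a sample's description and against the thalamus and striatum marker means, 30 relations in all. Of these, 4 had an unadjusted exact permutation p under 0.05 and 0 passed after adjustment. Gfap was higher where striatum markers were lower, with r = -0.884 (exact permutation p = 0.00193, adjusted p = 0.058) and rho = -0.952 (exact permutation p = 0.00114), and r = -0.628 without control replicate 1 and trehalose 1 day replicate 2. Against the thalamus mean, Gfap had r = 0.863 (exact permutation p = 0.0127, adjusted p = 0.177) and rho = 0.524 (exact permutation p = 0.197). Slc1a3 had r = -0.784 (exact permutation p = 0.0177, adjusted p = 0.177) and rho = -0.619 (exact permutation p = 0.115). Agt had r = 0.734 (exact permutation p = 0.037, adjusted p = 0.262) and rho = 0.429 (exact permutation p = 0.299). Without the same pair of arrays these became 0.124, -0.0136 and -0.207, while r rose from 0.225 to 0.807 for Aqp4 and from 0.329 to 0.7 for S100b. That pair held the lowest and the highest thalamus mean, so leaving it out narrows the range of that mean. The values without it therefore cannot tell whether the relations rest on those arrays alone. Against the description number, Gja1 came nearest, with r = 0.629 (exact permutation p = 0.0935, adjusted p = 0.312), rho = 0.778 (exact permutation p = 0.0295) and r = 0.606 without trehalose 1 day replicate 1 and 10 days replicate 3.

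The genes whose pattern over the 8 arrays was most like that of each astrocyte gene were taken from 4262 probes with an SD of at least 0.1. They are the highest values of a large search and carry no test. For Agt they were Calb2, the calcium-binding protein calretinin and one of the thalamus markers, Sparc and Nt5dc3, with Pearson's r of 0.986, 0.968 and 0.939. For Slc1a3 they were C1qc (0.915), the complement gene of microglia, Rasgef1a (0.894) and Sfxn3 (0.891), and for the bright Slc1a2 probe Slc39a3 (0.918), Aatk (0.864) and Tpp1 (0.853). For Gfap they were Tanc1 (0.97), A930024E05Rik (0.955) and Ak4 (0.953), and for Aqp4 Plaat3 (0.957), Pias1 (0.935) and Rnf168 (0.906). For Gja1 they were Dnal1 (0.982), Tcf4 (0.949) and Zfp708 (0.937), and for Gjb6 Cdr2 (0.939), Cck (0.935), a neuropeptide gene, and Mospd1 (0.928). For S100b they were Ankrd40 (0.955), Mog (0.934), a myelin gene, and Mypn (0.916). For Aldh1l1 they were Fxyd1 (0.975), a regulator of the sodium pump, Nxph1 (0.933) and Ncam1 (0.93), and for Ntsr2 Mpp5 (0.977), Hadhb (0.962) and Gm10105 (0.948). In none of these lists did another of the 10 genes appear.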

How the data were processed

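Total RNA was amplified, coupled to Cy5 and hybridised to one-colour arrays, per the labels' protocols. The deposited scanner files hold the median intensity of each spot, joined from 3 gains, and a local background, per the file headers; a second table holds the authors' processed intensity on a linear scale, with a median of 25 on every array, which served as an alternative. Software was not given in the sources used here.

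Spot medians were corrected by normexp (offset 50, no local background), quantile normalized and analysed as log2 values with limma 3.58.1 in R 4.3.3; 10 failed probe spots, none of an astrocyte probe described here, were set to missing. Probes above the blank mean plus 2 SD on at least 2 arrays were tested (21583); per array, the ratio of the median probe spot to the mean blank ran from 2.45 to 2.87. One fit held all 8 arrays in 3 groups, with eBayes and Benjamini-Hochberg adjustment over all tested probes. The annotation gave 1 gene for 20690 probes, several for 0 and none for 2783. The procedure was tested on simulated data. The number of arrays limits precision: the 95% interval of the astrocyte probes reached 0.11 to 0.315 to each side.

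Genes and lists were chosen with earlier results of these data known. Named genes are the 10 astrocyte genes, the lowest p of each related list per comparison, the 3 genes most alike, and a few list members chosen after their values were seen. Deviations of same-numbered arrays of different groups had correlations of -0.0247 to 0.263 over 7 pairs. For differently numbered arrays of different groups they were -0.315 to 0.213 over 14 pairs. The main fit did not take the numbers as pairs, though the labels do not settle this, and a fit with them as a block is given below.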

Additional observations from a re-analysis of the deposited data

How the results depend on the processing

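No astrocyte probe was called under any of the settings run. The count over all probes was 1 at 10 days against control and 1 between the times, both with the blank mean subtracted and with trend and robust variances. Leaving out 1 array gave 0 to 2 calls at 1 day and 0 to 2 at 10 days against control, the 2 each time without control replicate 1, where the lone control is assumed to vary like the other groups; without control replicate 1 and trehalose 1 day replicate 2 there were 2 and 2. None was an astrocyte probe. The replicate block turned 2 of 33 changes, Aldh1l1 (-0.017) and Ntsr2 (-0.0011) at 10 days against control, and moved 7 of the 33 by over 1.5 times without turning. With it Agt at 1 day was 0.36 (unadjusted p = 0.00357 by limma) and Ntsr2 at 1 day 0.14 (unadjusted p = 0.0472 by limma, adjusted p = 1). Between the times Agt (-0.20) and Ntsr2 (-0.14) kept their values, with an unadjusted p of 0.0239 and 0.0259 by limma. Subtracting the local background column turned 12 of 33 and moved 16 more by over 1.5 times, among them the bright Slc1a2 probe (-0.63 and -0.53) and Gja1 (1.45 and 1.78) at 1 and 10 days against control, and Agt at 1 day (0.77). It turned Aqp4 (0.13), Slc1a3 (0.019) and Ntsr2 (-0.12) at 1 day; Gfap (-0.024), Aqp4 (-0.051), Slc1a3 (0.10), Aldh1l1 (-0.14) and Ntsr2 (-0.27) at 10 days against control; and Aqp4 (-0.18), the bright Slc1a2 probe (0.097), Gja1 (0.33) and S100b (-0.25) between the times. That column followed the spots, with r of 0.936 to 0.983 across spots on the log scale. S100b between the times was -0.0045 with median scaling and -0.029 with array weights, Aldh1l1 at 10 days was -0.0071 with the description number as covariate, and the authors' table gave 0.0025 for the bright Slc1a2 probe and 0.021 for Gja1 between the times.

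Leaving out each array in turn, changes that turned ran, at 1 day against control, from -0.080 to 0.060 (dim Slc1a2 probe), -0.026 to 0.23 (Gja1), -0.22 to 0.070 (Gjb6) and -0.029 to 0.13 (Aldh1l1). At 10 days against control Gfap ran from 1e-04 to 0.086 without turning, and those that turned from -0.021 to 0.17 (dim Slc1a2 probe), -0.029 to 0.23 (Gja1), -0.12 to 0.17 (Gjb6), -0.075 to 0.080 (Aldh1l1), -0.12 to 0.037 (S100b) and -0.030 to 0.18 (Ntsr2). Between the times they ran from -0.012 to 0.18 (dim Slc1a2 probe), -0.078 to 0.037 (bright), -0.055 to 0.099 (Gja1), -0.086 to 0.017 (Aldh1l1) and -0.059 to 0.095 (S100b). Of those that kept their sign, values at 1 day against control include the bright Slc1a2 probe (-0.20 to -0.033), Agt (0.27 to 0.54) and Ntsr2 (0.14 to 0.32), and at 10 days the bright Slc1a2 probe (-0.22 to -0.045), Aqp4 (0.0027 to 0.14) and Agt (0.073 to 0.34). Slc1a3 at 1 day ran from -0.21 to -0.13. Without control replicate 1 and trehalose 1 day replicate 2, Gjb6 at 1 day was -0.35, the dim Slc1a2 probe (0.12) and Aldh1l1 (-0.018) turned at 1 day, and Gfap (-1e-04), Gja1 (-0.028), Gjb6 (-0.12), Aldh1l1 (-0.074) and S100b (0.010) at 10 days against control.

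Of the relations, 1 passed with median scaling (Gfap and the striatum mean, r = -0.89, exact permutation adjusted p = 0.0461; 0.0536 to 0.854 for the lowest adjusted p under the other settings). Among pairs, 0 to 1 passed when 1 array was left out: Gfap and Slc1a3 without trehalose 1 day replicate 1 (r = -0.976, exact permutation adjusted p = 0.0357), and Gfap and Gja1 without trehalose 1 day replicate 2 (r = 0.958, exact permutation adjusted p = 0.0268). The cause of these shifts was not tested.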
